A study of Mus musculus with 10 samples.

Results

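Interferon response and antigen presentation genes were followed in a dissected region of the hippocampus, the dorsal dentate gyrus granule cell layer, of mice that had self-administered cocaine or saline. The set is a fixed list of 34 symbols: 5 interferon regulators, 16 interferon-induced effectors, 6 immunoproteasome and peptide loading genes, 4 MHC class I genes and 3 MHC class II genes. Members were found by Ensembl identifier in the table of raw read counts. All 34 of the 34 were among its 49315 genes, and all 34 passed the low-count filter that left 17080 genes to test. No measured value entered the choice of symbols for this list, but earlier results of these data were known when it was drawn up.

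The animals were male C57 BL/6 mice, 5 labelled for cocaine self-administration and 5 for saline self-administration. The groups share their strain, sex and tissue and differ in the labelled drug alone. The labels give no age, dose, session number or time of dissection. The tissue, labelled dDG DGC, was a layer cut out of the dorsal dentate gyrus and not sorted cells, and poly(A) RNA was sequenced from 1 library per mouse. Any cell in or beside the layer can contribute RNA, and in such bulk tissue fewer cells of a type and less RNA per cell cannot be told apart.

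Interferons are secreted proteins that bind surface receptors and activate the kinases JAK1 and TYK2, which phosphorylate STAT proteins. STAT2 and IRF9 are subunits of the complex ISGF3, which binds the interferon-stimulated response element (ISRE). Another element, the gamma-activated site (GAS), serves the response to interferon gamma. The genes switched on block viral entry, translation and replication. They also supply peptides to MHC class I, found on nearly all nucleated cells. MHC class II, in contrast, is held mainly by professional antigen-presenting cells, and in healthy brain both are low in neurons and are made largely by microglia, border macrophages and vessel cells.

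Promoter windows were searched for exact matches to a core of each element. RefSeq promoters (GRCm38.p6, from 250 bases before to 50 after a start) were found for 29 of the 34 members, all but Ifi27, Usp18, Tap2, Cd74 and H2-Ab1. The ISRE core (GAAA, any 2 bases, GAAA), on either strand, was present in 12 of 29 members (41.4%) and in 3.99% of 27025 genes with a promoter. It was present in 9 of 14 effectors, 2 of 4 class I genes, 1 of 5 regulators, 0 of 5 immunoproteasome and peptide loading genes and 0 of 1 class II genes. The GAS core TTCNNNGAA, also on either strand, was present in 6 of 29 (20.7%), namely Irf1, Bst2, Ifi35, Ifit2, Ifitm3 and Psmb8, against 9.55% of genes. The windows below, each wholly upstream of the start and read on the strand of the gene, are shown because they carry the motif in 2 regulators, 3 effectors and the shared class I light chain. Capitals mark the motif on either strand, so TTTC, 2 bases and TTTC is an ISRE core on the opposite strand.
Stat2, chr10:128270256-128270305, plus strand, ISRE: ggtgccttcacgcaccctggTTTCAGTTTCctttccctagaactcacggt
Irf1, chr11:53769904-53769952, plus strand, GAS: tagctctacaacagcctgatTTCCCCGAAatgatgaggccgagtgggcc
Ifit1, chr19:34640765-34640833, plus strand, ISRE: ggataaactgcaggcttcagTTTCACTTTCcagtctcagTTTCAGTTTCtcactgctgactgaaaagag
Isg15, chr4:156200855-156200916, minus strand, ISRE: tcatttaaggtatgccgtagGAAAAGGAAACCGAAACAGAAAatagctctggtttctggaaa
Bst2, chr8:71537567-71537622, minus strand, ISRE: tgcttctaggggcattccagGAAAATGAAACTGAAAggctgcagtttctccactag
B2m, chr2:122147528-122147577, plus strand, ISRE: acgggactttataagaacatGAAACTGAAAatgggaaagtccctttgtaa
Ifit1 holds 2 separate cores, and in Isg15 and Bst2 overlapping cores run together. A match describes letters in a window and does not show that a factor binds there. Lack of a match does not show that a gene lacks the element, since only the exact core in this window was searched.

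Total counts ran from 34991548 to 46481533 per library. Levels are CPM, counts scaled to the library total after TMM adjustment, an edgeR scaling factor that lay between 0.963 and 1.03. On the first principal component, with 30.3% of the variance, cocaine replicate 5 lay apart at -45.1 against -16.5 to 23.1 for the other 9 libraries. Granule cell markers (9 genes, Prox1 among them) summed to 1314 to 2233 CPM in cocaine and 1617 to 2275 CPM in saline libraries. Their sums were lowest in cocaine replicates 5 and 1, at 1314 and 1371 CPM. On the fitted scale 1 of 9 was higher in cocaine, with a median of -0.14 log2 units. No other tissue was measured, so these levels alone do not check the granule cell label. Summed choroid plexus markers (10 genes, the tissue that makes cerebrospinal fluid) ran from 65.9 to 3635 CPM in cocaine and from 99.8 to 1411 CPM in saline libraries. They were highest in cocaine replicates 5 and 1 and saline replicate 3. Oligodendrocyte markers (10 genes) summed to 3874 to 10360 CPM in cocaine and 3824 to 5484 CPM in saline libraries, highest in cocaine replicate 5. In both lists 10 of 10 genes were higher on average in cocaine libraries, with medians of 0.80 and 0.66 log2 units, and 10 of 10 oligodendrocyte and 0 of 10 choroid plexus markers had an unadjusted p under 0.05 in edgeR. Ependyma markers (7 genes) summed to 16.7 to 99.0 CPM in cocaine and 10.4 to 44.5 CPM in saline libraries, highest in cocaine replicates 5 and 1 and saline replicate 3, with 6 of 6 tested higher and a median of 0.95. Red cell markers (5 genes) summed to 48.9 to 280.0 and 53.9 to 125 CPM, highest in cocaine replicate 5, with 5 of 5 higher and a median of 0.35. Astrocyte markers (8 genes) summed to 3337 to 4242 and 3650 to 4247 CPM, with 0 of 8 higher and a median of -0.054. Of these, 1 was lower at an unadjusted p under 0.05 in edgeR, beside 3.33% of all genes. Fibroblast and meninges markers (9 genes) summed to 44.3 to 97.3 and 52.8 to 82 CPM, highest in cocaine replicate 4, with 6 of 9 higher. Pericyte and smooth muscle markers (8 genes) had 4 of 8 higher. The part of these marker lists in the results for the 34 genes was not tested.

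Of the 34 genes, 31 had a higher fitted level in the cocaine group, their log2 fold changes running from -0.46 to 0.66 with 0.24 as the median. Of the 17080 genes tested, 53.6% had a fitted level higher in cocaine, and their median was 0.016. With upper-quartile scaling 32 of the 34 were higher, as Psmb8 moved from -0.00458 to 0.022. At an unadjusted p under 0.05 in edgeR's quasi-likelihood test, 8 of the 34 were higher (Irf3, Ifi27, Irf1, Ifitm3, Irf9, Stat2, Bst2 and Tap2) and 0 lower, beside 5.58% of all genes higher and 3.33% lower. With Benjamini-Hochberg adjustment over all genes, 0 of the 34 passed 0.05, as did 0% of all genes in either direction. The smallest adjusted p of a member was 0.504. For 0 of the 34 did every cocaine library lie above every saline library, a separation seen in 0.773% of all genes, nor every one below, seen in 0.609%.

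The count of 8 depended on single libraries. It was 13 without cocaine replicate 2, where 6.99% of all genes were higher at that p. It was 5 without cocaine replicate 4, cocaine replicate 5 or saline replicate 1 (4.64%, 8.87% and 3.63% of all genes). It was 4 without saline replicate 5 (3.8%), and 3 without cocaine replicate 1 or saline replicate 4 (3.94% and 5.57%). Without the 3 libraries richest in choroid plexus markers, 26 of 34 stayed above 0 on the log2 scale, their median being 0.15, and 5 were higher (Irf3, Ifi27, Stat2, Irf1 and Irf9) and 1 lower (Ifitm2, at -0.64) at that p, beside 7.04% of all genes higher and 3.51% lower.

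**Figure D1:**
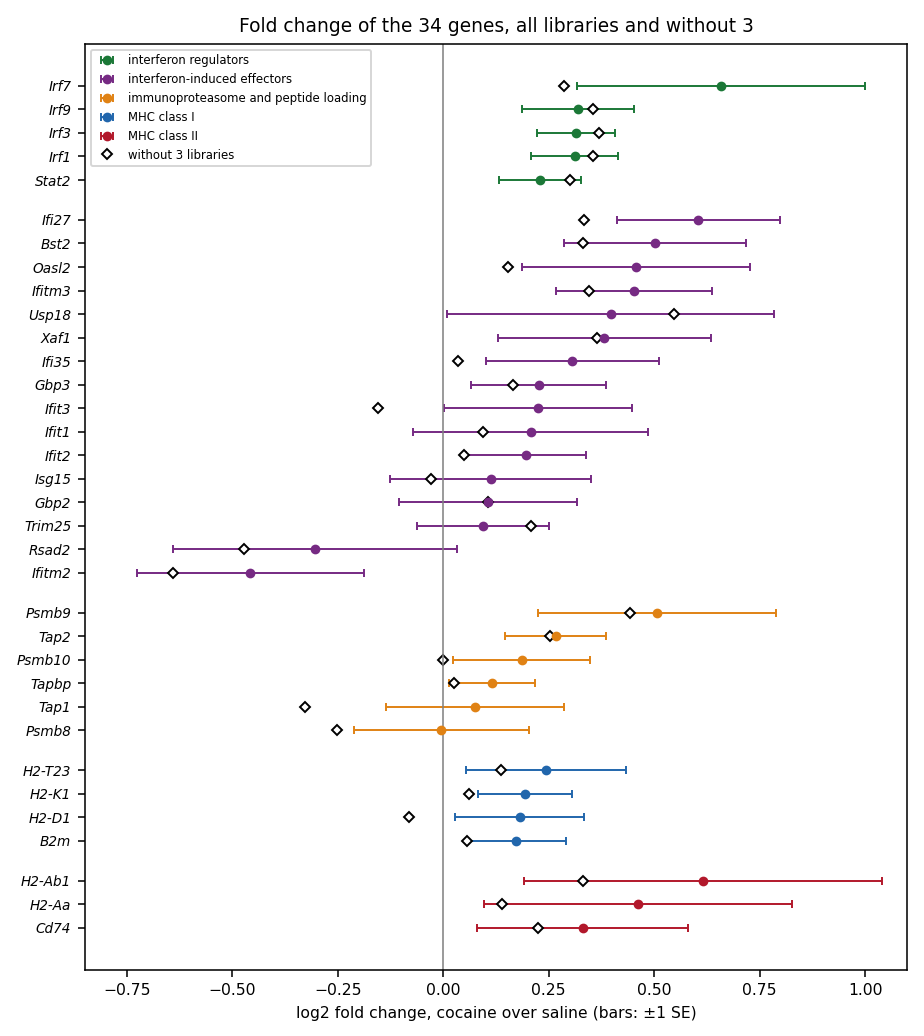
Log2 fold change (cocaine over saline, horizontal axis) of each of the 34 genes with its standard error, grouped by role; open diamonds leave out the 3 libraries richest in choroid plexus markers. Points lie right of 0 for 31 of 34, from -0.46 for Ifitm2 to 0.66 for Irf7, and none passed the adjusted threshold.

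The interferon regulators held 4 of the 8 members with an unadjusted p under 0.05. All 5 of 5 had a log2 fold change above 0, their median being 0.31. Irf3 (chr7:44997648-45002848, mm10), the factor that cytosolic nucleic acid sensors activate to induce interferon itself, had the smallest p of all members. Its level was 27.4, 23.98, 28.9, 25.2 and 21.6 CPM in cocaine replicates 1 to 5 and 20.3, 21.5, 21.6, 20.3 and 18.4 CPM in saline replicates 1 to 5. Cocaine replicates 1 to 4 lay above every saline library, and cocaine replicate 5 fell within the saline range. The means were 25.4 ± 2.87 and 20.4 ± 1.28 CPM (SD, n = 5 each). The log2 fold change was 0.31 with a standard error of 0.092, an unadjusted p of 0.00454 and an edgeR adjusted p of 0.504. Irf3 overlaps Bcl2l12 on the opposite strand by 88 exonic bases.

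Irf1 (chr11:53770014-53778374), a factor induced by interferon gamma that drives MHC class I and immunoproteasome genes, was at 9.24, 12.2, 10.96, 12.4 and 11.6 CPM in the cocaine libraries. The saline libraries held 8.99, 9.55, 8.41, 8.92 and 9.60 CPM. Here cocaine replicate 1 was the library that overlapped the saline range, and the other 4 cocaine libraries lay above it. Irf1 had a log2 fold change of 0.31 with a standard error of 0.10, an unadjusted p of 0.0104 and an edgeR adjusted p of 0.504. It overlaps Gm17334 on the opposite strand by 135 exonic bases.

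Stat2 (chr10:128270559-128292849), the STAT specific to ISGF3, was at 33.9, 33.1, 35.7, 30.0 and 25.2 CPM in the cocaine libraries. In the saline libraries it was at 28.5, 27.2, 27.8, 26.7 and 24.3 CPM. As for Irf3, replicates 1 to 4 of the cocaine group lay above every saline library and replicate 5 did not. Stat2 had a log2 fold change of 0.23 with a standard error of 0.097, an unadjusted p of 0.0338 and an edgeR adjusted p of 0.537.

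Irf9 (chr14:55603571-55610030), the DNA-binding subunit of ISGF3, was at 11.9, 12.5, 11.1, 12.2 and 8.43 CPM in cocaine and 8.91, 11.1, 7.70, 8.72 and 8.52 CPM in saline libraries. The lowest cocaine library was again replicate 5, and saline replicate 2 reached the level of cocaine replicate 3. For Irf9 the log2 fold change was 0.32 with a standard error of 0.13, an unadjusted p of 0.0313 and an edgeR adjusted p of 0.535. Irf9 and Rnf31 share 123 exonic bases on the same strand, so part of its counts could belong to the neighbour.

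Irf7 (chr7:141262706-141266481), the interferon-induced amplifier of interferon production, was scarce and rested on 1 library. It stood at 4.71 CPM in cocaine replicate 1, against 1.21 to 2.15 CPM in the other cocaine libraries and 1.03 to 1.96 CPM in the saline libraries. Its log2 fold change of 0.66 was the largest of the 34, with a standard error of 0.34 and an unadjusted p of 0.0760. Without the 3 libraries richest in choroid plexus markers it was 0.29.

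Cocaine replicate 1, second in choroid plexus markers, had a summed regulator level of 87.2 CPM, next to the highest, 88.5 CPM in cocaine replicate 3. Cocaine replicate 5, the highest in choroid plexus and oligodendrocyte markers, was the highest library for 0 of the 5 regulators. It was the lowest cocaine library for Stat2, Irf3 and Irf9. Without cocaine replicates 5 and 1 and saline replicate 3, the 5 regulators had log2 fold changes of 0.29 to 0.37, their median being 0.35; Irf7 was then the lowest and no longer the highest of the 5. Irf3, Irf1, Stat2 and Irf9 had an unadjusted p under 0.05 in that edgeR fit. It kept cocaine replicate 4, whose oligodendrocyte marker sum of 8000 CPM was next to the highest. The part of these markers in the regulator values was not tested. Over the 18 fits made, Irf3 and Irf1 had an unadjusted p under 0.05 in 18, Stat2 in 12 and Irf9 in 11. Of the other members only Ifi27 reached 18 of 18. The fits reuse the same 10 mice and are not independent, so these counts are not repeated support. The share of all genes that reached 18 of 18 is not given.

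**Figure D2:**
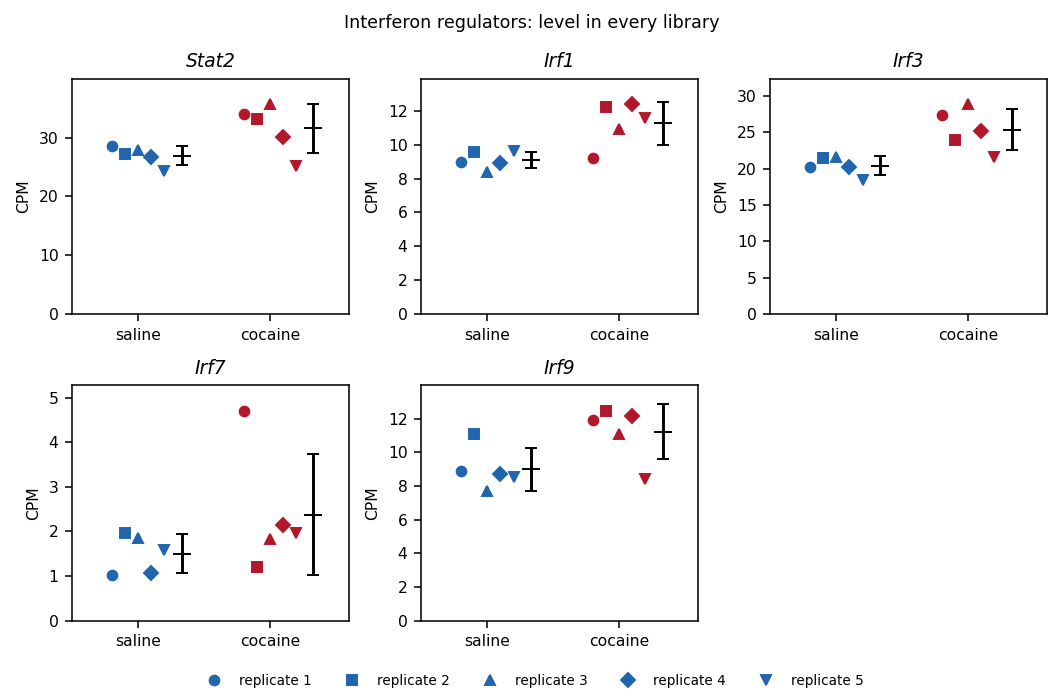
CPM of the 5 interferon regulators in each library (points, cocaine and saline; the bars give the mean and SD of 5 mice), each panel with its own vertical axis. For Irf3 and Stat2 cocaine replicates 1 to 4 lie above every saline library, and for Irf7 a single cocaine library at 4.71 CPM lies apart.

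The interferon-induced effectors spread from -0.46 to 0.60 on the log2 scale. Of 16, 14 lay above 0 on the log2 scale, the median of the 16 being 0.23, and 3 had an unadjusted p under 0.05, all higher. Ifi27 (chr12:103434211-103440239), an interferon-induced protein of the mitochondrial and nuclear envelope membranes, was the most abundant of them by CPM and had the smallest p. It was at 31.5, 17.0, 19.1, 18.0 and 32.1 CPM in the cocaine libraries and 13.5, 14.3, 20.1, 14.8 and 14.5 CPM in the saline libraries. The 2 highest cocaine libraries and the highest saline library were the 3 richest in choroid plexus markers. For Ifi27 the log2 fold change was 0.60 with a standard error of 0.19, an unadjusted p of 0.00777 and an edgeR adjusted p of 0.504, and it was 0.33 without those 3 libraries.

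Ifitm3 (chr7:141009586-141010770), a membrane protein that stops enveloped viruses at entry, was at 11.8, 7.59, 8.12, 12.1 and 13.6 CPM in cocaine libraries. In saline libraries it was at 5.77, 8.83, 9.74, 6.98 and 7.57 CPM. Cocaine replicates 1, 4 and 5 lay above every saline library, while replicates 2 and 3 lay within the saline range. Its log2 fold change was 0.45 with a standard error of 0.19, an unadjusted p of 0.0299 and an edgeR adjusted p of 0.530.

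Bst2 (tetherin), which holds budding virions at the cell surface, showed the same libraries at the top. It was at 4.11, 2.25, 3.23, 3.84 and 4.57 CPM in cocaine and 1.99, 3.32, 2.84, 2.13 and 2.42 CPM in saline libraries, with a log2 fold change of 0.50. The standard error was 0.22, the unadjusted p 0.0371 and the edgeR adjusted p 0.541.

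Ifit2 (chr19:34550694-34576419), which binds foreign RNA and restrains its translation, was the second most abundant effector by CPM. It was at 11.8, 8.51, 9.75, 11.9 and 13.3 CPM in cocaine and 8.41, 12.3, 9.40, 8.82 and 9.41 CPM in saline libraries. Saline replicate 2 lay well above the other saline libraries, and the groups overlapped. Its log2 fold change was 0.20 with an unadjusted p of 0.190. Its relatives Ifit1 and Ifit3 gave 0.21 and 0.22, and for all 3 saline replicate 2 was the highest saline library. Ifit3 shares 51.2% of its 50-base stretches with other annotated transcripts, chiefly Ifit3b, so its counts are uncertain.

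Ifitm2, a close relative of Ifitm3, had the lowest log2 fold change of all members. It was at 1.25, 1.14, 0.899, 1.16 and 2.07 CPM in cocaine libraries and at 1.41, 1.66, 2.28, 1.32 and 2.28 CPM in saline libraries. Ifitm2 had a log2 fold change of -0.46 with a standard error of 0.27 and an unadjusted p of 0.112. It shares 48.5% of its 50-base stretches with other annotated transcripts, mostly Gm45717, so its level is uncertain too. Rsad2 (viperin, an antiviral enzyme) was the other effector under 0, at -0.30 with a standard error of 0.34 and a mean of 0.893 ± 0.363 CPM in cocaine and 1.102 ± 0.368 CPM in saline libraries (SD, n = 5 each).

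The remaining 8 effectors were between 0.094 and 0.46, and each overlapped between groups with an unadjusted p above 0.1. Oasl2, of the oligoadenylate synthetase family, was at 0.46 and rested on 7.10 CPM in cocaine replicate 1, the other 9 libraries lying between 2.22 and 4.26 CPM. Xaf1, a pro-apoptotic interferon target, was at 0.38 with 6.21 CPM in cocaine replicate 4 and 1.99 to 4.54 CPM elsewhere. Usp18, which removes ISG15 from proteins and damps the receptor, was at 0.40 on 13 to 43 counts per library. Ifi35 was at 0.31, the guanylate-binding proteins Gbp3 and Gbp2 at 0.23 and 0.11, Isg15 (the ubiquitin-like modifier) at 0.11 and Trim25 (a ubiquitin ligase of the RIG-I pathway) at 0.094.

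The immunoproteasome and peptide loading genes prepare peptides for MHC class I. Of 6, 5 lay above 0 on the log2 scale, the median of the 6 being 0.15, with 1 unadjusted p under 0.05. That gene was Tap2 (chr17:34203527-34216321), a subunit of the transporter that carries peptides into the endoplasmic reticulum. It was at 12.6, 12.03, 12.6, 10.9 and 15.0 CPM in cocaine and 8.64, 10.8, 12.7, 10.4 and 9.92 CPM in saline libraries. Saline replicate 3 exceeded all cocaine libraries but replicate 5. For Tap2 the log2 fold change was 0.27 with a standard error of 0.12, an unadjusted p of 0.0455 and an edgeR adjusted p of 0.556. Tap2 overlaps Gm15821 by 533 and Gm20496 by 165 exonic bases, both on the opposite strand. Its partner Tap1 was at 0.075, with 3.52 ± 1.102 CPM in cocaine and 3.34 ± 0.344 CPM in saline libraries (SD, n = 5 each).

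Psmb9 (chr17:34181987-34187764), a catalytic subunit that replaces Psmb6 in the immunoproteasome, was at 1.69, 1.35, 1.85, 1.81 and 1.86 CPM in cocaine libraries. It varied more in saline libraries, at 0.604, 1.02, 1.118, 1.30 and 1.98 CPM, the last being the highest library of all. Psmb9 had a log2 fold change of 0.51 with a standard error of 0.28 and an unadjusted p of 0.0952. Psmb9 and Tap1 overlap by 212 exonic bases on opposite strands. The libraries were directional, but the strand setting of the counting is not given in the sources used here.

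Psmb10 (chr8:105935735-105938444), which replaces Psmb7, was the most abundant of the 6 by CPM at 22.3, 16.0, 26.0, 23.03 and 35.3 CPM in cocaine and 18.9, 23.6, 21.2, 22.5 and 21.6 CPM in saline libraries. Cocaine replicate 5 was the highest and cocaine replicate 2 the lowest of all 10. The log2 fold change was 0.19 with an unadjusted p of 0.276, and -0.00118 without the 3 libraries richest in choroid plexus markers. Psmb8, which replaces Psmb5, had nearly equal means of 3.37 ± 0.972 and 3.38 ± 0.335 CPM (SD, n = 5 each). Psmb8 overlaps Gm20496 on the opposite strand by 498 exonic bases. Tapbp (tapasin, which bridges the transporter and class I) was at 23.9, 17.1, 18.4, 21.5 and 22.1 CPM in cocaine and 18.6, 20.4, 20.4, 17.9 and 17.8 CPM in saline libraries, with a log2 fold change of 0.12 and an unadjusted p of 0.275. Tapbp overlaps Gm19412 on the opposite strand by 904 exonic bases and Zbtb22 on the same strand by 149.

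Per kilobase of exon and over all libraries, Psmb8 was at 0.997 CPM per kb against 42.9 for its standard counterpart Psmb5, or 2.32%. Psmb9 was at 0.399 against 50.2 for Psmb6, or 0.795%. Psmb10 was at 13.5 against 38.4 for Psmb7, or 35.2%. The length used was the union of all annotated exons. It was 3381 bases for Psmb8, 3660 for Psmb9 and 1705 for Psmb10, and the percentages depend on it. The standard subunits were named after their values were seen.

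All 4 of 4 MHC class I genes lay above 0 on the log2 scale, their median being 0.19, and 0 had an unadjusted p under 0.05. B2m (chr2:122147686-122153083), the light chain shared by class I molecules, was at 67.8, 46.2, 58.0, 61.5 and 76.1 CPM in cocaine and 50.6, 51.7, 62.1, 53.6 and 56.5 CPM in saline libraries. The cocaine libraries held both the 2 highest values, in replicates 5 and 1, and the lowest, in replicate 2. The log2 fold change was 0.17 with a standard error of 0.12, an unadjusted p of 0.162 and an edgeR adjusted p of 0.672.

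The classical heavy chains followed the same libraries. H2-D1 (chr17:35262730-35267499) was at 61.6, 30.4, 38.2, 43.0 and 52.4 CPM in cocaine libraries and 35.4, 40.6, 41.7, 39.8 and 41.6 CPM in saline libraries. H2-K1 (chr17:33996017-34000347) was at 34.1, 22.4, 27.7, 29.6 and 33.4 CPM in cocaine libraries and 26.3, 27.6, 27.0, 23.03 and 24.7 CPM in saline libraries. In both, cocaine replicates 1 and 5 were the top 2 and cocaine replicate 2 the lowest. The log2 fold changes were 0.18 for H2-D1 and 0.19 for H2-K1, with unadjusted p of 0.257 and 0.104.

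The non-classical H2-T23 (Qa-1), a ligand of inhibitory receptors of natural killer cells, was at 9.69, 5.86, 7.25, 8.94 and 10.95 CPM in cocaine and 5.97, 8.68, 9.31, 5.76 and 6.32 CPM in saline libraries. Its log2 fold change was 0.24 with an unadjusted p of 0.223. H2-D1, H2-T23 and H2-K1 share 12.8%, 13.6% and 9.63% of their 50-base stretches with other annotated transcripts, so reads could be split among class I genes.

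**Figure D3:**
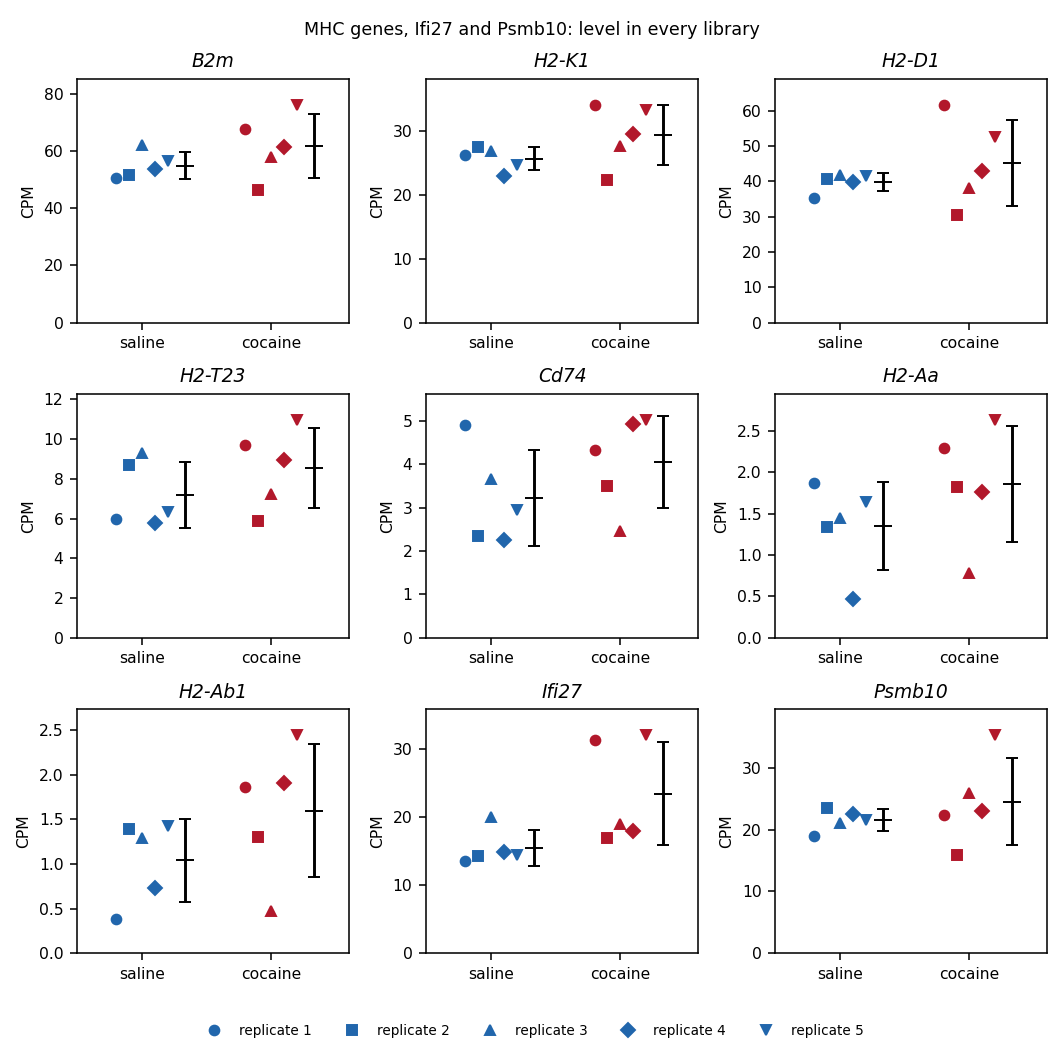
CPM of the MHC class I and class II genes, Ifi27 and Psmb10 in each library (points, cocaine and saline; the bars give the mean and SD of 5 mice), each panel with its own vertical axis. In the 4 class I panels cocaine replicates 1 and 5 are the 2 highest libraries, and the groups overlap in every panel.

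Class I levels spread more widely over the cocaine than over the saline mice. Their summed level ran from 104.9 to 173.2 CPM over the cocaine libraries and from 118.2 to 140.1 CPM over the saline libraries, and this difference in spread was not tested. Without the 3 libraries richest in choroid plexus markers the 4 genes had a median of 0.059, with B2m at 0.056, H2-K1 at 0.062, H2-T23 at 0.14 and H2-D1 at -0.080. In the same fit the immunoproteasome and peptide loading genes had a median of 0.012, with 3 of 6 above 0 and Tap1 at -0.33. The effectors had a median of 0.13 with 12 of 16 above 0.

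Among the MHC class II genes, H2-Aa and H2-Ab1 were scarce, at 0.422 and 0.514 CPM per kb of exon over all libraries. Cd74 was at 2.17. All 3 of 3 lay above 0 on the log2 scale, their median being 0.46, and 0 had an unadjusted p under 0.05. Cd74, the invariant chain that guards the class II groove, was at 4.33, 3.51, 2.47, 4.93 and 5.02 CPM in cocaine libraries and 4.91, 2.36, 3.65, 2.25 and 2.94 CPM in saline libraries. Its log2 fold change was 0.33 with a standard error of 0.25 and an unadjusted p of 0.208.

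H2-Aa (chr17:34282744-34287823), the class II alpha chain, was at 2.29, 1.83, 0.787, 1.76 and 2.63 CPM in cocaine and 1.86, 1.34, 1.44, 0.465 and 1.64 CPM in saline libraries. H2-Ab1 (chr17:34257689-34269419), the beta chain, was at 1.87, 1.30, 0.478, 1.91 and 2.44 CPM in cocaine and 0.378, 1.39, 1.29, 0.735 and 1.42 CPM in saline libraries. In all 3 genes cocaine replicate 5 was the highest library, and cocaine replicate 3 was the lowest cocaine library. The log2 fold changes were 0.46 and 0.62 with unadjusted p of 0.229 and 0.170. Counts were 19 to 100 per library for H2-Aa and 15 to 93 for H2-Ab1, so their precision was low. Without the 3 libraries richest in choroid plexus markers the class II median was 0.23.

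Markers of cells that carry MHC molecules are given beside these genes. Microglia markers (12 genes) summed to 331 to 557 CPM in cocaine and 385 to 425 CPM in saline libraries, highest in cocaine replicate 5, with 7 of 12 higher in cocaine on the fitted scale and a median of 0.017. Endothelium markers (10 genes) summed to 209 to 340 and 236 to 292 CPM, with 2 of 10 higher. The microglia and endothelium sums were both lowest in cocaine replicate 2. Dendritic cell markers (6 genes) summed to 14.5 to 21.8 and 14.7 to 16.4 CPM, highest in cocaine replicate 1, with 1 of the 2 tested higher. Border macrophage markers (8 genes) summed to 10.8 to 17.0 and 11.5 to 20.6 CPM, with 1 of the 6 tested higher. Lymphocyte and neutrophil markers (13 genes) summed to 2.61 to 4.08 and 2.37 to 3.65 CPM, 1 of 13 passing the low-count filter, and Ly6g was at 0 in every library. The part of these cells in the results was not tested.

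**Figure D4:**
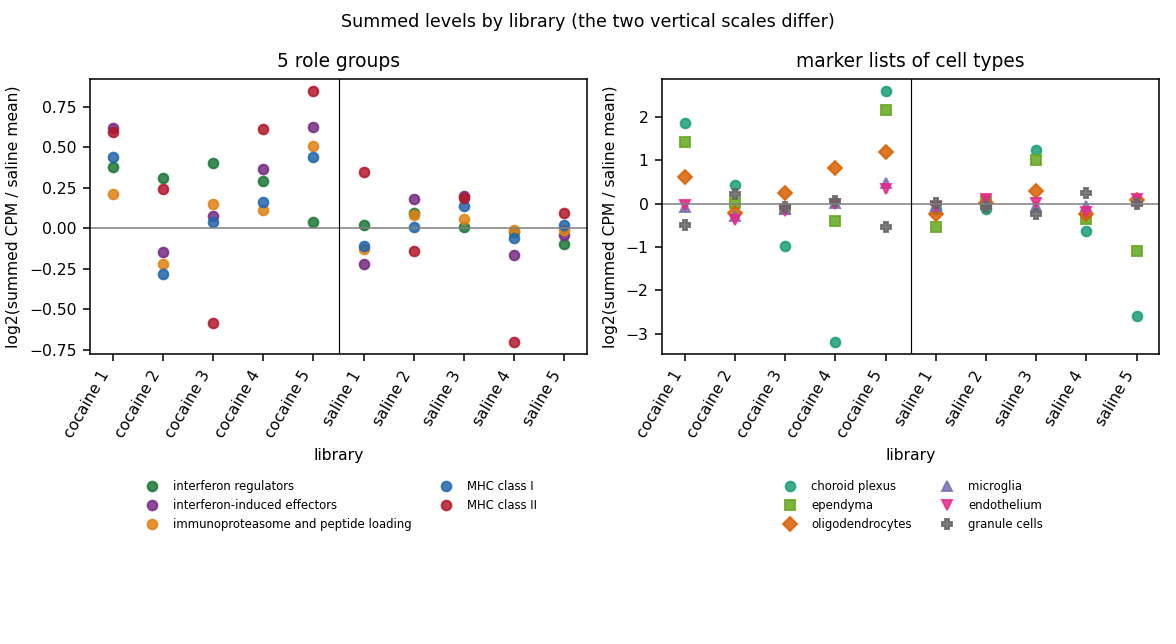
Summed level of each role group and of marker lists in each library, as log2 of the library's sum over the mean saline sum (vertical axis). The regulators are near the saline mean in cocaine replicate 5, where the effectors, class I, oligodendrocyte and choroid plexus sums are at or near their highest.

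Across the 34 genes the order of libraries was uneven. Cocaine replicate 5 was the highest library for 15, cocaine replicate 1 for 7 and cocaine replicate 4 for 5. A cocaine library was the highest for 30 of 34. The same counts over all genes are not given, so this order is not shown to be particular to the 34. The summed microglia and endothelium markers were also highest in cocaine replicate 5. Their lists had median log2 fold changes of 0.017 and -0.034. Cocaine replicate 2 was the lowest library for 12 and saline replicate 1 for 9. A saline library was the lowest for 19 of 34. Most of the highest values thus lay in the cocaine group and most of the lowest in the saline group.

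**Figure D5:**
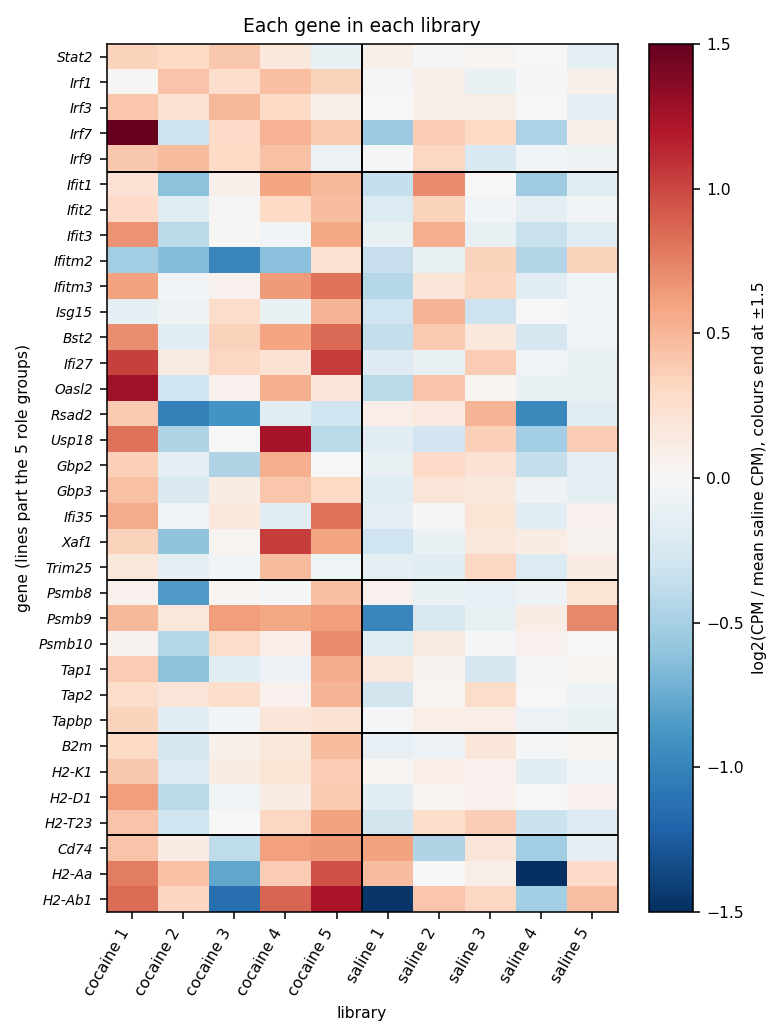
Log2 of each gene's CPM over its mean saline CPM (colour) for the 34 genes (rows, by role) in the 10 libraries (columns). Cocaine replicates 1 and 5 are high for most class I and effector genes, cocaine replicate 2 is low for the same genes, and the regulators Stat2, Irf3 and Irf9 are lower in cocaine replicate 5 than in the other cocaine libraries.

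Levels between genes were compared per kilobase of exon. B2m led at 67.9 CPM per kb over all libraries, followed by H2-D1 at 16.5, Ifitm3 at 13.6, Psmb10 at 13.5 and Ifi27 at 13.3. These 5 were the members above 10 CPM per kb. H2-K1 was at 9.39, Irf3 at 6.66, Tapbp at 5.46 and Stat2 at 4.94. Under 1 CPM per kb lay 12 members, the lowest being Usp18 at 0.188 and Rsad2 at 0.230.

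Other genes of the pathway came from lists of textbook members. Of 14 interferon ligand genes in the table, 11 had 0 counts in every library, and the others were Ifne with 3 counts, Ifng with 2 and Ifnb1 with 1 over all 10 libraries. A count of 0 over 405052240 counts allows up to 0.007406 CPM, counting error only. For those 11 genes transcripts were not detectable at this depth. None of the 14 passed the low-count filter, so none was tested.

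The receptors and their kinases had 5 of 8 tested genes above 0 on the log2 scale, a median of 0.056 and 0 with an unadjusted p under 0.05. The smallest p were those of Jak1, at -0.16, and Ifnar2, at 0.10. The nucleic acid sensing genes upstream of interferon had 6 of 14 above 0 and a median of -0.016. At that p 1 of the 14 was higher, beside 5.58% of all genes. That gene was Ikbke, a kinase that phosphorylates IRF3 and IRF7. It was at 1.02 to 1.39 CPM in cocaine and 0.465 to 0.982 CPM in saline libraries, so the groups did not overlap. Every cocaine library lay above every saline library in 0.773% of all genes tested. Ikbke was singled out by the smallest p of its list and rested on 19 to 56 counts per library. Its log2 fold change was 0.80 with a standard error of 0.25, an unadjusted p of 0.00669 and an edgeR adjusted p of 0.504. Cgas, the cytosolic DNA sensor, was next by p at -0.46.

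Other interferon-induced genes had 39 of 54 tested above 0 and a median of 0.17. At an unadjusted p under 0.05 in edgeR, 3 of the 54 were higher and 0 lower. Over all genes tested 5.58% were higher and 3.33% lower at that p, so the 3 lay near that share. Uba7, the activating enzyme of ISG15, was at 0.41 and Ddx60, a helicase, at 0.96. The third was Oas2, at 1.09. Other class I and peptide supply genes had 10 of 18 above 0, a median of 0.033, and 0 higher and 1 lower, the chaperone Canx at -0.20. Other class II genes had 9 of 11 above 0, a median of 0.13, and 0 higher and 1 lower, the ubiquitin ligase March1 at -0.36. In these 5 lists with tested genes, 0 passed the edgeR adjusted threshold.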

How the data were processed

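Per the labels, poly(A) RNA from a dissected layer was made into NEB Ultra II Directional libraries, 1 for each of 5 cocaine and 5 saline mice. The authors deposited raw counts per Ensembl gene, and the submitters' processing notes name cutadapt, STAR, Cufflinks, HTSeq and mm10. The annotation release, like strand setting and filters, is not given in the sources used here. Symbols, positions and exon lengths (the union of all annotated exons) came from GENCODE M21 (mm10). Beside the overlaps given above, Irf7, Ifi35 and Usp18 overlap opposite-strand genes by 45, 290 and 124 exonic bases.

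Counts were tested with edgeR 4.0.16 in R 4.3.3 (TMM, filterByExpr, quasi-likelihood F test, two-sided, Benjamini-Hochberg over 17080 genes, threshold 0.05), a procedure tested on simulated data. Alternatives used DESeq2 1.42.0, limma 3.58.1, other scalings, no filter, a replicate block and left-out libraries. Same-numbered mice were not treated as pairs.

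Members and lists were chosen with earlier results of these data known. Every member is named. Library values are given for the 2 of each role group with the highest mean CPM and the 2 with the smallest p, and for others singled out after their values were seen. From other pathway lists the named genes are those of smallest p, and their number differs between lists. A further list of the pathway is not reported here.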

Additional observations from a re-analysis of the deposited data

Results flagged for a closer look

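In 4 of 68 groups of 5 libraries over the 34 genes, a single library stood apart by Dixon's test, where chance gives about 1 in 20. Irf7 was at 4.71 CPM in cocaine replicate 1, with the next cocaine library at 2.15 CPM. Ifit2 was at 12.3 CPM in saline replicate 2, with the next saline library at 9.41 CPM. Ifit3 was at 8.41 CPM in the same mouse, with the next at 5.35 CPM, and part of its sequence is shared with Ifit3b. Ifi27 was at 20.1 CPM in saline replicate 3, with the next at 14.8 CPM, and that library had the most choroid plexus marker RNA of the saline group.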

How the results depend on the processing

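Calls over all genes depended on the tool and the libraries, and 0 of the 34 members passed the adjusted threshold in any of the 18 fits. DESeq2 called 16 genes higher against 1 lower. With voom and sample weights (limma) the counts were 91 and 4. Leaving out single libraries gave 0 to 126 higher and 0 to 3 lower, with 126 and 3 without cocaine replicate 5. At an unadjusted p under 0.05, members higher numbered 5 with the replicate block (4.3% of all genes), 5 without the 3 libraries richest in choroid plexus markers (7.04%), and 3 to 13 with single libraries left out (3.63% to 8.87%). Members lower numbered 1 with voom (6.65% of all genes), 1 without those 3 libraries (3.51%), and 0 to 1 with single libraries left out (1.6% to 6.55%). The median over the members ran from 0.17 to 0.31 with single libraries left out and was 0.15 without those 3 libraries. The smallest member adjusted p was 0.0536, for Irf3 with voom, and 0.0564, for Irf3 without cocaine replicate 5.

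Direction turned for 8 genes. Without those 3 libraries Psmb10 was at -0.00118, Isg15 at -0.030, Tap1 at -0.33, H2-D1 at -0.080 and Ifit3 at -0.16. Tap1 was at -0.037 with voom, and Psmb8 at 0.022 with upper-quartile factors. With single libraries left out, Tap1 ranged from -0.076 (without cocaine replicate 5) to 0.21, with -0.013 without cocaine replicate 1, and Isg15 from -0.0065 (without cocaine replicate 5) to 0.27. Without cocaine replicate 4 Trim25 and Gbp2 were lowest, at -0.017 and -0.029, with highs of 0.18 and 0.22. Psmb8 ranged from -0.14 to 0.15, highest without cocaine replicate 2, and was at 0.00994 without saline replicate 1 and 0.051 without saline replicate 5. The cause was not tested. Same-numbered mice did not deviate together (correlations -0.28 to 0.07, 0 of 5 closest to their own number), so the replicate block is given for completeness and changed no adjusted call.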
